A study of Mus musculus with 12 samples.

Results

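Mitochondrial ribosomal proteins build the ribosome inside mitochondria, which translates the few proteins encoded by mitochondrial DNA, all of them subunits of the respiratory chain and ATP synthase. The ribosomal proteins themselves are encoded in the nucleus, made in the cytosol and imported, and they join mitochondrially encoded ribosomal RNA in a large subunit, which forms peptide bonds, and a small subunit, which reads the messenger RNA. Some members have counterparts in bacterial ribosomes, and the others are found in mitochondria alone. Their transcription is commonly linked to nuclear respiratory factor 1 (NRF1), the ETS factor GABP, YY1 and MYC.

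The members were all rows of the deposited expression table whose gene symbol begins with Mrpl or Mrps followed by a digit, and whose normalized count averaged 10 or more over the 12 libraries. This gave 77 of 24458 genes, 48 named for the large subunit (Mrpl) and 29 for the small subunit (Mrps). All 77 were among the 12198 genes tested. Subunits were taken from the names, although structures of the mammalian ribosome place the products of Mrps30 and Mrps18a in the large subunit. Mrps36 keeps its ribosomal name, but its product is now known as a component of the 2-oxoglutarate dehydrogenase complex of the citric acid cycle.

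The libraries came from mouse embryonic fibroblasts, primary connective tissue cells from embryos that were passaged no further than a 5th passage. Libraries of 3 groups, 4 in each, were compared, and all were collected at 24 h. The apigenin group received the plant flavone apigenin at 50 µM. The chrysin group received chrysin, a flavone that lacks the B-ring hydroxyl group of apigenin, at 50 µM. The untreated group received control medium, and the sources used here do not say if it contained the solvent the flavones were dissolved in. Nor do they name the mouse strain or the embryos' age. Because nothing says that the 4 libraries of a group came from separate cultures, p-values reflect the spread among these libraries alone, which may be technical.

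Recovered read totals ran between 4298640 and 15512637 per library, and 3 of the 4 chrysin libraries held 5679356 reads or fewer, against 12957316 in chrysin replicate 1. A member had between 23 and 1324 reads in a library. Each of 12 fibroblast markers was detected, among them Col1a1, whose mean level was 14.17 with apigenin, 14.05 with chrysin and 15.32 untreated on the log2 scale. The pluripotency gene Pou5f1 was at 0 in every library, and Epcam, Cdh1, Pecam1 and Myod1, which mark epithelium, endothelium and muscle, averaged 1.31 or less in each group. The macrophage-associated genes Cd68 and Lyz2 were present (9.69 and 9.63 with apigenin, 8.44 and 9.05 with chrysin, 8.23 and 9.49 untreated). Of the 12 fibroblast markers, 9 fell and 1 rose with apigenin, while 7 fell and 1 rose with chrysin. The low genes named here were part of a list of 20 other-cell markers, of which 9 had enough reads to test. Low levels of the named genes therefore do not show that other cell types were absent. Of the 9 other-cell markers with enough reads, 1 rose and 3 fell with apigenin, and 3 fell with chrysin. Over all genes tested, 46.2% rose or fell with apigenin and 53.0% with chrysin. The part of such shifts in the values below was not tested. Apigenin replicates 1 and 3 are known from earlier results of these data to stand apart from replicates 2 and 4, so counts are also given for each pair.

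A level is the log2 of the normalized read count plus 1, as deposited. A difference is the fitted difference of such levels with its standard error from limma over all 12 libraries, and a gene was called, that is, it rose or fell, at a Benjamini-Hochberg adjusted p under 0.05 over all genes tested. In these bulk libraries, fewer cells and less RNA per cell cannot be told apart.

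The mean level of the 48 large subunit members was 7.71, 7.63, 7.79 and 7.69 in apigenin replicates 1 to 4, 7.51, 7.57, 7.69 and 7.52 in chrysin replicates 1 to 4, and 7.80, 7.62, 7.65 and 7.64 in untreated replicates 1 to 4. The mean level of the 29 small subunit members was 7.47, 7.45, 7.50 and 7.47 with apigenin, 7.36, 7.51, 7.57 and 7.33 with chrysin, and 7.58, 7.47, 7.49 and 7.46 untreated. On this scale the 3 groups overlapped in both subunits, and the chrysin libraries held the lowest values. As a share of all recovered reads, the large subunit took 0.147% to 0.158% with apigenin, 0.115% to 0.131% with chrysin and 0.125% to 0.141% untreated. The small subunit took 0.0781% to 0.0806% with apigenin, 0.0647% to 0.0778% with chrysin and 0.0694% to 0.0751% untreated. On the scale of shares, which divides by the library total instead of the authors' size factors, the apigenin libraries lay above all chrysin and untreated libraries in both subunits. With levels scaled to the library total, the median log2 difference of all genes tested was also above 0 with apigenin. It was 0.14 against untreated and 0.22 against chrysin. Between the nearest libraries the gap in the subunits' shares was small. The Wilson 95% interval of the large subunit's share was 0.144% to 0.150% in apigenin replicate 1 and 0.138% to 0.145% in untreated replicate 1, and that of the small subunit's share 0.0760% to 0.0803% in apigenin replicate 1 and 0.0756% to 0.0802% in chrysin replicate 3, which covers counting error only.

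**Figure D1:**
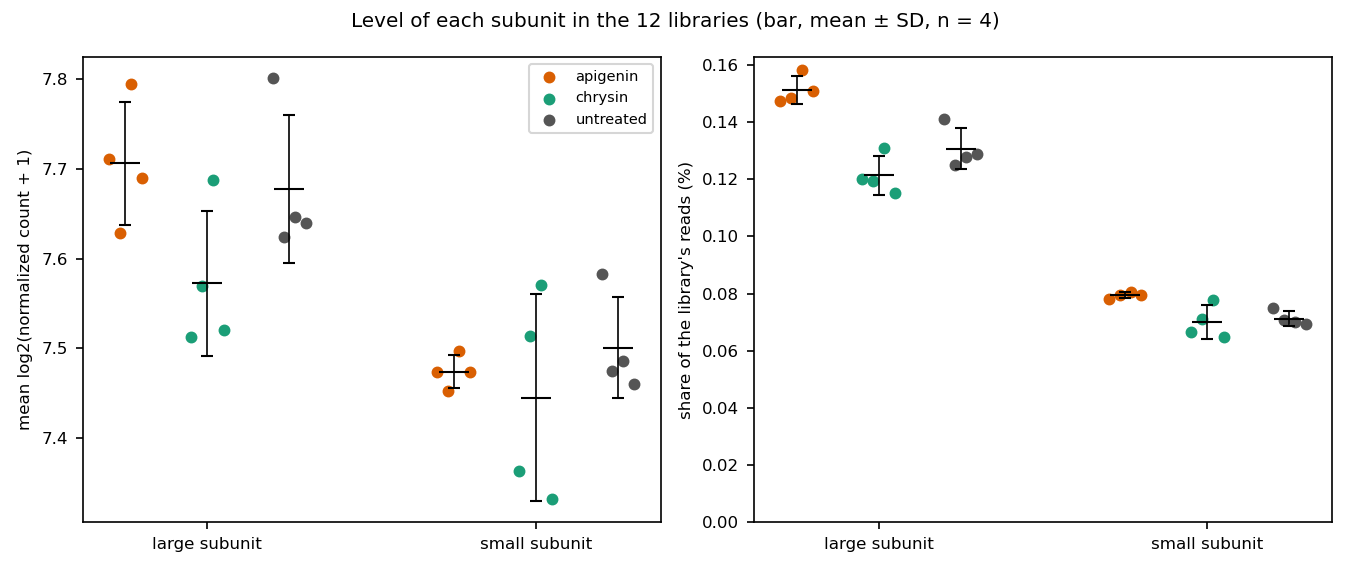
Mean level of the large and the small subunit members (left, log2 of the normalized count plus 1) and their share of the recovered reads (right, %) in each library, with group means and SD (n = 4). The groups overlap on the left, while on the right the apigenin libraries, at 0.147% to 0.158% for the large subunit, lie above the others. With levels scaled to the library total, the median of all genes tested was also higher with apigenin.

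The first comparison asked what apigenin did to the 2 subunits. In the large subunit 9 members rose, led by Mrpl34, Mrpl10 and Mrpl40, and 5 fell, led by Mrpl54 and Mrpl23. In the small subunit Mrps12 and Mrps2 rose, and Mrps28, Mrps10, Mrps18b and Mrps15 fell. Most members were not called, 34 of 48 in the large and 23 of 29 in the small subunit. Over all genes tested 23.0% rose and 23.2% fell, against 18.8% and 10.4% of large subunit members and 6.90% and 13.8% of small subunit members. The median difference was 0.12 in the large and 0.07 in the small subunit, and 0.01 over all genes tested.

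Mrpl54, a large subunit protein specific to mitochondria, had the largest fall of the large subunit with apigenin. Its level was 6.79, 6.72, 6.91 and 6.80 in apigenin replicates 1 to 4, 7.42, 7.35, 7.94 and 7.69 in chrysin replicates 1 to 4, and 8.34, 8.02, 8.08 and 7.85 in untreated replicates 1 to 4. All apigenin values lay below all others, and the chrysin and untreated values overlapped. The difference was -1.27 ± 0.16 (SE, n = 4 per group) with limma's adjusted p = 6.04e-06. Mrps28, which encodes the counterpart of a small subunit protein of bacteria, fell furthest of all 77. It stood at 5.20, 4.78, 5.21 and 5.33 with apigenin, 5.86, 6.03, 6.28 and 6.29 with chrysin and 7.03, 6.28, 6.66 and 6.42 untreated. The apigenin libraries lay below both other groups (-1.47 ± 0.23 against untreated, limma's adjusted p = 6.00e-05).

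Mrpl10 encodes the protein that anchors the stalk of the large subunit, where translation factors bind. Its level was 9.08, 9.32, 9.09 and 9.17 with apigenin, 9.01, 8.43, 8.66 and 8.67 with chrysin, and 8.53, 8.44, 8.57 and 8.75 untreated. The apigenin values lay above all others, and the difference from untreated was 0.60 ± 0.12 (limma's adjusted p = 0.000841). Mrpl12, the stalk protein itself, which has also been described as a partner of the mitochondrial RNA polymerase, stood at 8.60, 9.06, 8.87 and 8.89 with apigenin, against 8.41, 8.49, 8.67 and 8.51 untreated. Those groups overlapped, and the rise of 0.33 ± 0.13 (limma's adjusted p = 0.0404) was no longer called without untreated replicate 1, 2 or 4 or without apigenin replicate 2, 3 or 4 (adjusted p up to 0.128). Mrpl11, which lies at the base of the stalk, was not called (0.13 ± 0.15). Of these 3 stalk genes, 2 were called, against 46.2% of all genes tested. Mrpl10 was named for the size of its rise, so this count is no finding about the stalk.

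Mrpl34, whose product has a bacterial counterpart, stood at 7.21, 7.60, 7.53 and 7.69 with apigenin, against 7.03, 6.89, 6.83 and 6.64 untreated (0.66 ± 0.18). Mrpl40, a mitochondria-specific protein, stood at 7.45, 7.99, 8.06 and 8.08 with apigenin, against 7.26, 7.44, 7.20 and 7.43 untreated (0.56 ± 0.17). In both genes every apigenin value exceeded every untreated value, though Mrpl40 in apigenin replicate 1, at 7.45, was close to the highest untreated library, at 7.44. With apigenin replicates 1 and 3 alone neither was called, at 0.52 (adjusted p = 0.0693) for Mrpl34 and 0.43 (adjusted p = 0.0960) for Mrpl40. Mrpl30, which has a bacterial counterpart, rose by 0.45 ± 0.10 and is described with chrysin. The other large subunit members that rose were Mrpl38, Mrpl45, Mrpl20 and Mrpl28, by 0.35 to 0.42.

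Mrps10 and Mrps18b of the small subunit fell. Mrps10, with a bacterial counterpart, stood at 6.61, 6.53, 6.69 and 6.82 with apigenin, against 7.31, 7.10, 7.09 and 7.18 untreated (-0.50 ± 0.14, limma's adjusted p = 0.00876). Mrps18b, 1 of the 3 relatives of bacterial S18 in mammalian mitochondria, stood at 7.49, 7.37, 7.62 and 7.58 with apigenin, against 7.97, 7.81, 8.08 and 7.70 untreated (-0.38 ± 0.13). Apigenin values were the lower ones in both genes, without overlap. The related Mrps18a and Mrps18c were not called (0.35 ± 0.19 and 0.14 ± 0.18). Mrps15 fell by 0.36 and Mrpl17 by 0.29, with adjusted p-values near the threshold (0.0436 and 0.0425).

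The apigenin calls depended on libraries and scaling more than the sizes above show. Of the 20 calls, 8 were kept when each library was left out in turn, and 5 were kept at an adjusted p under 0.05 under every other fit, filter or scaling (Mrpl10, Mrpl30, Mrpl54, Mrps10 and Mrps28). With apigenin replicates 1 and 3 alone, 4 large subunit members rose and 1 fell, and 1 and 2 small subunit members did. With replicates 2 and 4 alone the counts were 7 and 7 in the large and 3 and 4 in the small subunit. Of the 12198 genes tested, 2024 rose and 2302 fell with replicates 1 and 3 alone, and 3330 and 3370 with replicates 2 and 4 alone. Scaling each library to its own total moved the median of all genes by 0.13 (apigenin against untreated). On that scale 3843 of the 12198 genes tested rose and 2194 fell. The members then split into 14 risen and 2 fallen in the large subunit and 5 and 2 in the small subunit. Their medians were 0.25 and 0.20. Centring on the median gave 8 and 5, and 1 and 4. Leaving out 1 library ended several of the smaller calls. Mrps12 was not called without untreated replicate 2, 3 or 4 or apigenin replicate 3 or 4 (adjusted p up to 0.0798), nor Mrps2, a small subunit protein with a bacterial counterpart that stood 0.28 ± 0.10 higher, without replicate 1 or 3 of either group (up to 0.0796). Mrps18b was not called without untreated replicate 1 or 3 or apigenin replicate 2 (up to 0.0877). Mrpl17 was not called without untreated replicate 1, 3 or 4 or apigenin replicate 1 or 4 (up to 0.133), and Mrps15 without untreated replicate 1, 2 or 4, apigenin replicate 2 or 4 or chrysin replicate 2 or 4 (up to 0.131).

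**Figure D2:**
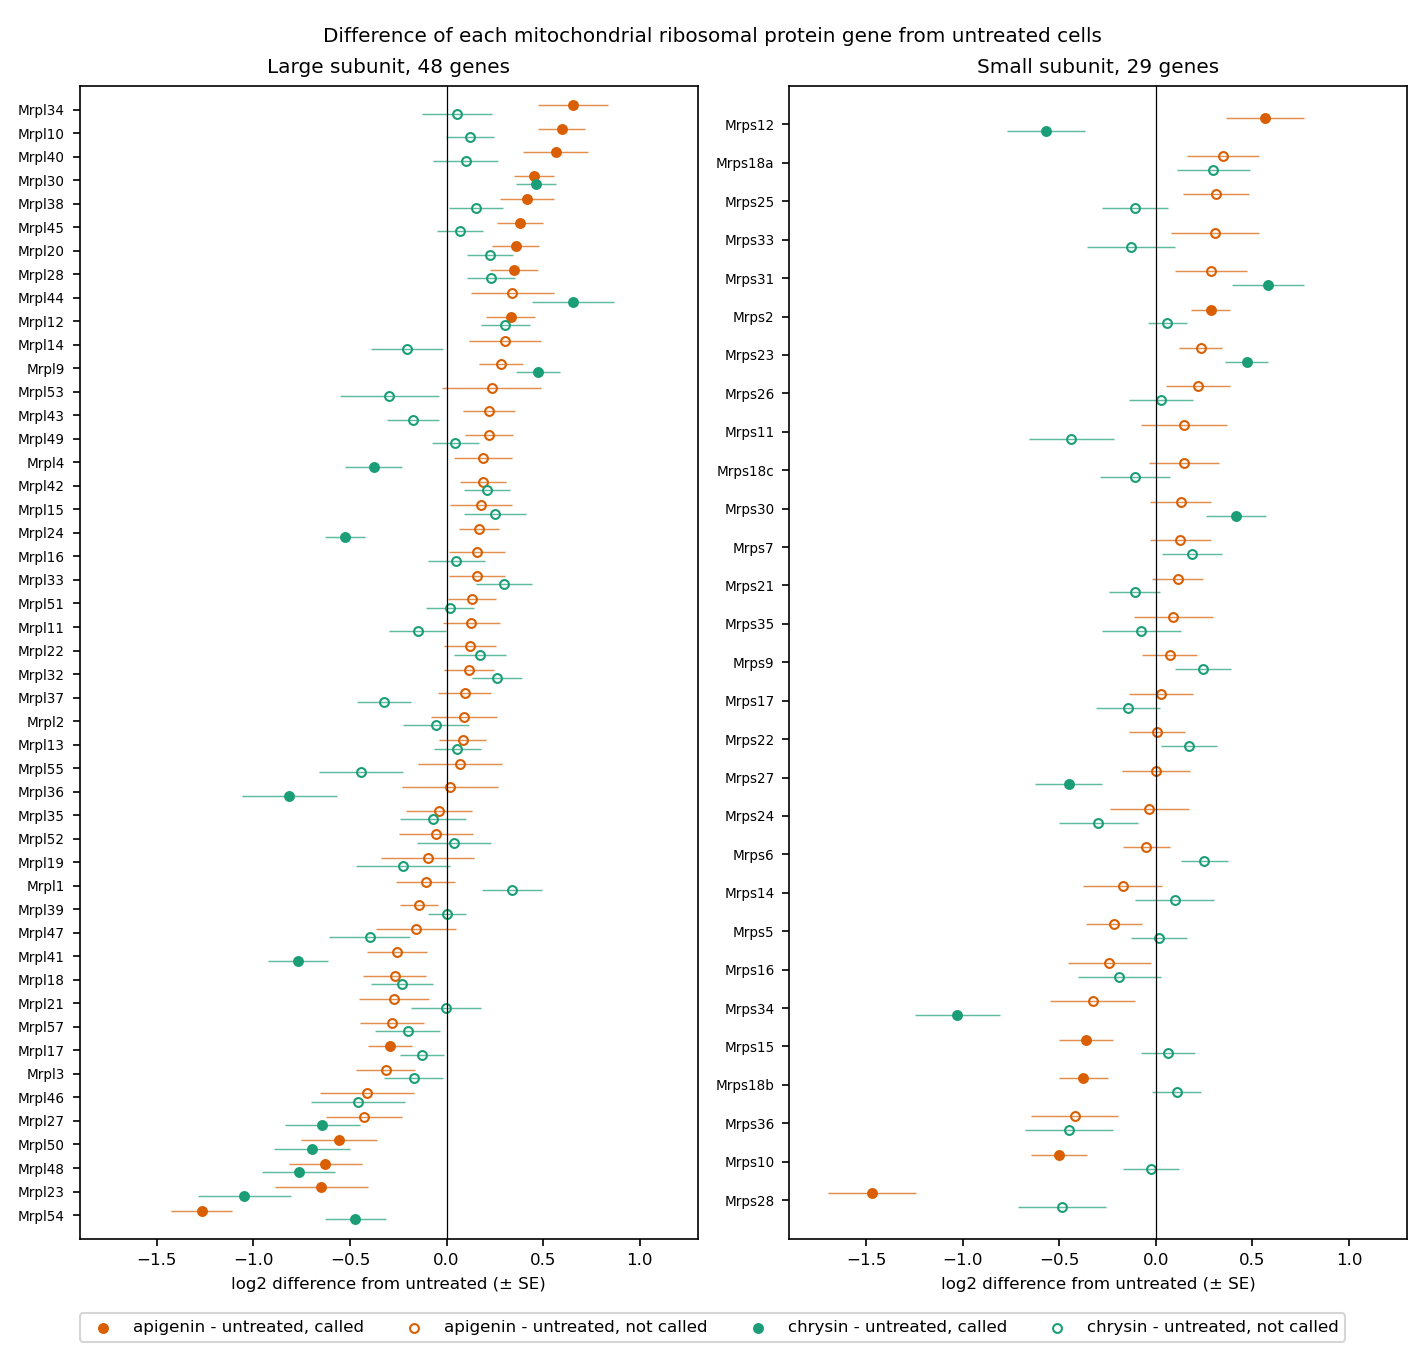
Fitted log2 difference from untreated cells, with SE, of each large subunit (left) and small subunit (right) gene, for apigenin (orange) and chrysin (green), where filled points mark called genes. Members are ordered by the apigenin difference, and most lie within 0.5 of 0, with Mrps28 and Mrpl54 at -1.47 and -1.27 at the foot of the apigenin series and Mrpl23 and Mrps34 at -1.05 and -1.03 lowest for chrysin.

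The second comparison asked the same of chrysin, against the same 4 untreated libraries. In the large subunit 3 members rose (Mrpl30, Mrpl9 and Mrpl44) and 9 fell, led by Mrpl23, Mrpl36 and Mrpl41. In the small subunit Mrps31, Mrps23 and Mrps30 rose, and Mrps34, Mrps12 and Mrps27 fell. No call was made for 36 of 48 and 23 of 29. Over all genes tested 26.3% rose and 26.7% fell, against 6.25% and 18.8% of large subunit members and 10.3% each way of small subunit members. The median difference was -0.03 in the large and -0.02 in the small subunit, and -0.03 over all genes tested.

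Mrpl23, with a bacterial counterpart at the exit of the ribosome's peptide tunnel, fell with each flavone. It stood at 6.58, 6.27, 6.60 and 6.21 with apigenin, 6.48, 6.08, 5.18 and 6.32 with chrysin, and 7.18, 7.03, 7.02 and 7.03 untreated. All treated values lay below all untreated values, and chrysin replicate 3 was lowest. The chrysin difference was -1.05 ± 0.24 (limma's adjusted p = 0.0015), and the apigenin difference was -0.65 ± 0.24 (adjusted p = 0.0349), which was not called without any 1 of the 4 untreated libraries or without apigenin replicate 2 or 4 (adjusted p up to 0.0860).

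Mrps34, a mitochondria-specific small subunit protein, stood at 6.80, 6.70, 6.91 and 6.80 with apigenin, 6.40, 6.69, 5.85 and 5.48 with chrysin, and 7.09, 7.06, 7.26 and 7.11 untreated. The chrysin values were the lowest and the most spread. The chrysin difference was -1.03 ± 0.22 (limma's adjusted p = 0.000903) and the apigenin difference, not called, -0.33 ± 0.22. In the mm9 annotation Mrps34 overlaps Nme3 on the same strand and Mapk8ip3 on the other, so its reads are uncertain.

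Mrpl36 and Mrpl41 also fell with chrysin. Mrpl36, a small protein with a bacterial counterpart, stood at 5.86, 5.94, 6.10 and 5.30 with chrysin, against 6.67, 6.57, 6.56 and 6.66 untreated (-0.81 ± 0.25). Mrpl41 is specific to mitochondria and has also been described as a partner of BCL2. It stood at 7.35, 8.10, 7.42 and 7.32 with chrysin, against 8.42, 8.25, 8.37 and 8.23 untreated (-0.77 ± 0.16, limma's adjusted p = 0.000534). The groups did not overlap in either gene, and chrysin replicate 2 lay well above the other chrysin libraries in Mrpl41. Mrpl24, whose bacterial counterpart starts the assembly of the large subunit, had the tightest chrysin values, 8.00, 8.02, 8.04 and 7.90, against 8.38, 8.50, 8.64 and 8.54 untreated (-0.53 ± 0.10). The other large subunit falls were Mrpl48, Mrpl50, Mrpl27, Mrpl54 and Mrpl4, between -0.77 and -0.38. Of the small subunit, Mrps27 stood at 6.71, 6.95, 6.59 and 6.76 with chrysin, against 7.11, 7.17, 7.19 and 7.34 untreated (-0.45 ± 0.17).

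Mrpl30 was the 1 member that rose with each flavone. It stood at 8.91, 8.86, 8.72 and 8.96 with apigenin, 8.80, 8.83, 9.03 and 8.85 with chrysin, and 8.55, 8.39, 8.33 and 8.39 untreated. Every treated library lay above every untreated one. The chrysin difference was 0.46 ± 0.10 (limma's adjusted p = 0.00118) and the apigenin difference 0.45 ± 0.10 (adjusted p = 0.00182).

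Mrpl9, with a bacterial counterpart, stood at 8.29, 8.51, 8.51 and 8.28 with chrysin, against 7.80, 7.99, 8.03 and 7.88 untreated (0.47 ± 0.12). Mrps23 and Mrps31 are mitochondria-specific small subunit proteins. Mrps23 stood at 8.72, 8.90, 8.95 and 8.90 with chrysin, against 8.45, 8.56, 8.32 and 8.25 untreated (0.47 ± 0.11). Mrps31 stood at 7.86, 8.14, 7.97 and 7.76 with chrysin, against 7.37, 7.39, 7.19 and 7.47 untreated (0.58 ± 0.19). The chrysin values exceeded the untreated ones in all 3 genes, and the Mrps31 call was lost without chrysin replicate 2 (adjusted p = 0.0511) and without a filter on low counts. Mrps30, placed in the large subunit by structures, rose by 0.42 ± 0.16 with groups that overlapped. Mrps36 was not called with apigenin (-0.42 ± 0.23) or chrysin (-0.45 ± 0.23).

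Of the 18 chrysin calls, 11 were kept at an adjusted p under 0.05 under every other fit, filter or scaling (Mrpl9, Mrpl23, Mrpl24, Mrpl27, Mrpl30, Mrpl36, Mrpl41, Mrpl48, Mrpl50, Mrps23 and Mrps34), and of these Mrpl27 and Mrpl36 were not called at an adjusted p under 0.01 (limma's adjusted p = 0.0106 and 0.0107). Scaling to the library total moved the median of all genes by -0.08 (chrysin against untreated) and gave 3 risen and 10 fallen in the large and 2 and 4 in the small subunit, with medians of -0.11 and -0.10. On that scale 2773 of the 12198 genes tested rose and 3716 fell. After quantile normalization 3 rose and 1 fell in the small subunit, and its median was 0.03. Without untreated replicate 1, 3 or 4 or chrysin replicate 3 or 4 Mrpl4 was not called (adjusted p up to 0.122), nor was Mrpl54 without untreated replicate 1 or chrysin replicate 1 or 2 (up to 0.0646). Mrps27 was not called without untreated replicate 2, 3 or 4 or chrysin replicate 1, 3 or 4 (up to 0.102), nor Mrps30 without untreated or chrysin replicate 2, 3 or 4 (up to 0.106).

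**Figure D3:**
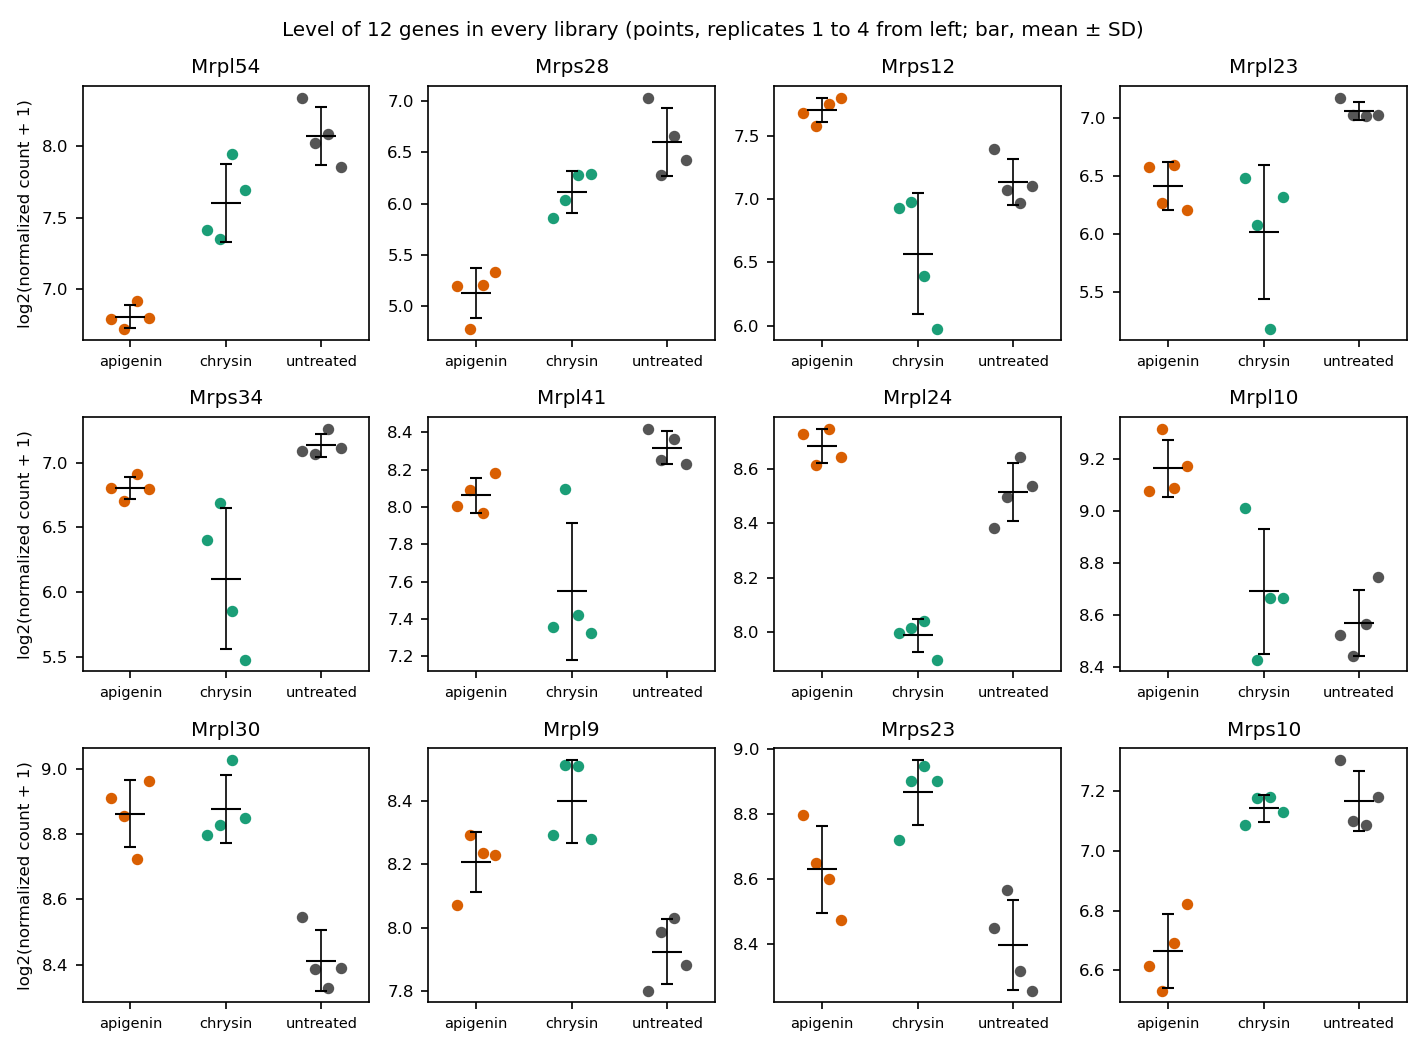
Level (log2 of the normalized count plus 1) of 12 members in each library, with group means and SD (n = 4), where each panel has its own vertical scale that does not start at 0. Mrpl54 and Mrps28 are lowest with apigenin, Mrps34, Mrpl41 and Mrpl24 are lowest with chrysin, and Mrps12 is highest with apigenin at 7.58 to 7.80 and lowest with chrysin at 5.98 to 6.98.

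Because the untreated libraries enter both comparisons, an overlap between the 2 sets of calls is no independent finding. In all, 4 large subunit members fell in each (Mrpl23, Mrpl48, Mrpl50 and Mrpl54), 1 rose in each (Mrpl30), 1 moved in opposite directions (Mrps12), and 45 of 77 were called in neither. Called either way were 26.0% of members with apigenin and 23.4% with chrysin, against 46.2% and 53.0% of all genes tested. How many of all genes tested were called in both comparisons or in neither is not given here.

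The third comparison set apigenin against chrysin, which differ by the B-ring hydroxyl group, at the same dose and time. This was 1 pair of compounds, and the p-values were adjusted over all genes tested. In the large subunit 11 members were higher and 2 lower with apigenin. In the small subunit 5 were higher and 5 lower. Over all genes tested 24.7% were higher and 26.1% lower, against 22.9% and 4.17% of large subunit members and 17.2% each way of small subunit members. The median difference was 0.12 in the large and 0.03 in the small subunit, and 0.01 over all genes tested. Scaling to the library total moved the median of all genes by 0.21 (apigenin against chrysin). On that scale 4443 of the 12198 genes tested were higher and 2101 lower. The members then gave 20 higher and 1 lower in the large and 9 and 1 in the small subunit. After quantile normalization the counts were 7 and 2, and 2 and 4, with a small subunit median of -0.13, so the direction of that median depended on the scaling.

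Mrps12 differed most. It encodes a protein of the decoding centre, the site where codon and anticodon pair, and has a bacterial counterpart. It stood at 7.68, 7.58, 7.75 and 7.80 with apigenin, 6.93, 6.98, 6.39 and 5.98 with chrysin, and 7.40, 7.07, 6.97 and 7.11 untreated. Apigenin values lay above both other groups, whereas chrysin replicate 2 overlapped the lowest untreated library. The difference between the flavones was 1.13 (95% CI 0.71 to 1.56; limma's adjusted p = 0.000185) and was called under every alternative. The differences from untreated were 0.57 ± 0.20 with apigenin (adjusted p = 0.0286) and -0.57 ± 0.20 with chrysin (adjusted p = 0.0244), and each was lost under some alternatives. For chrysin these included leaving out untreated replicate 1 or chrysin replicate 3 or 4 (adjusted p up to 0.0957, with a difference as small as -0.37), and for apigenin they included either pair of its libraries alone (0.0644 and 0.0571).

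Mrpl24 was higher with apigenin by 0.70 (95% CI 0.48 to 0.91; limma's adjusted p = 3.63e-05), with no overlap and with a tight spread in both groups. Mrps34 was higher by 0.70 (95% CI 0.23 to 1.17), and not called without chrysin replicate 4 (0.49, adjusted p = 0.0531). Also higher were Mrpl10 by 0.47 (95% CI 0.21 to 0.73) and Mrpl4, part of the tunnel wall, by 0.57 (95% CI 0.25 to 0.88). Mrpl4 stood at 7.62, 7.88, 7.72 and 7.81 with apigenin and 7.29, 7.39, 7.14 and 6.94 with chrysin. Lower with apigenin were Mrps28 by -0.98 (95% CI -1.47 to -0.50), Mrpl54 by -0.80 (95% CI -1.13 to -0.47), Mrps18b by -0.48 (95% CI -0.75 to -0.21) and Mrps10 by -0.48 (95% CI -0.78 to -0.17). The groups did not overlap in any of these 8 genes. Over the members, all values of one flavone lay on one side of all values of the other in 15.6%, against 41.0% of all genes tested. The same share was 27.3% of members and 45.1% of all genes for apigenin against untreated, and 16.9% and 51.4% for chrysin against untreated. Of the 23 calls, 7 were kept at an adjusted p under 0.05 under every other fit, filter or scaling (Mrpl4, Mrpl10, Mrpl24, Mrpl41, Mrpl54, Mrps12 and Mrps28), and of these Mrpl41 was not called at an adjusted p under 0.01 (limma's adjusted p = 0.0109).

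Where no difference between the flavones was called, the interval bounds what these libraries leave possible. For Mrpl30 the difference was -0.01 (95% CI -0.23 to 0.20), for Mrpl12 0.03 (95% CI -0.24 to 0.30) and for Mrpl23 0.40 (95% CI -0.11 to 0.90). The first 2 intervals are narrow, while that of Mrpl23 reaches nearly 1 on the log2 scale. The apigenin libraries divided most in Mrpl36, Mrps31 and Mrps27, among the named members whose replicates 1 and 3 did not overlap replicates 2 and 4. Because they were picked by this split, their values with each pair alone describe it and do not test it. Mrpl36 stood at 7.03 and 7.08 in apigenin replicates 1 and 3 but 6.46 and 5.96 in replicates 2 and 4. Its difference from chrysin was 1.25 with the first pair alone (adjusted p = 0.000183) and 0.41 with the other (adjusted p = 0.191), against 0.83 with all 4. Mrps31 stood at 7.37 and 7.30 in replicates 1 and 3 and 8.31 and 7.57 in replicates 2 and 4. With the first pair alone it differed from untreated by -0.02 (limma's adjusted p = 0.944) and from chrysin by -0.60 (adjusted p = 0.00430). With the other pair it differed from untreated by 0.59 (limma's adjusted p = 0.0104) and from chrysin by 0.01 (adjusted p = 0.979). With all 4 apigenin libraries neither difference was called. Mrps27 likewise stood at 7.57 and 7.40 in replicates 1 and 3 and 6.96 and 6.87 in replicates 2 and 4, and its difference from chrysin of 0.45 became 0.74 and 0.16 with each pair. It was not called without untreated replicate 2, 3 or 4, apigenin replicate 1 or 3, or chrysin replicate 1, 3 or 4 (adjusted p up to 0.138).

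**Figure D4:**
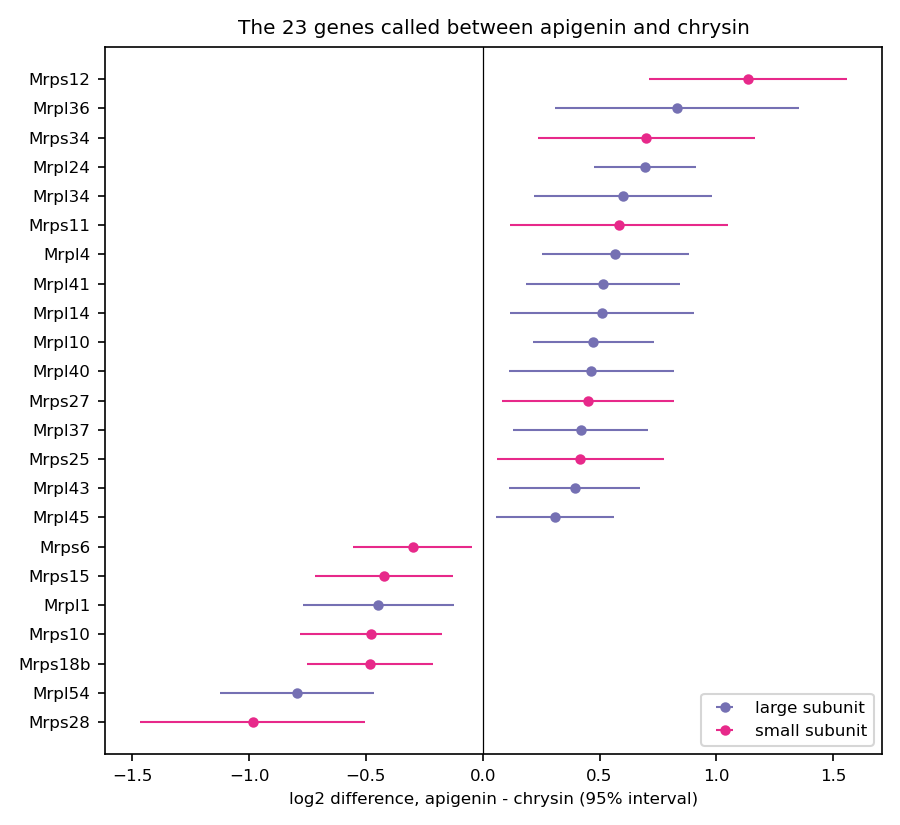
Fitted log2 difference, apigenin minus chrysin, with 95% interval, of the 23 members called between the flavones, coloured by subunit. Of 13 large subunit members 11 lie to the right of 0, and the 10 small subunit members are divided 5 to 5, from Mrps12 at 1.13 to Mrps28 at -0.98. Higher and lower were 22.9% and 4.17% of all large subunit members and 17.2% each way of small subunit members. Among all genes tested these shares were 24.7% and 26.1%.

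The size of the members' differences lay below that of the median gene. Their median absolute difference was 0.23 with apigenin and 0.22 with chrysin against untreated, where all genes tested had 0.41 and 0.47. A difference of at least 0.5 either way was found in 13.0% of members with apigenin and 14.3% with chrysin, against 42.0% and 47.4% of all genes. Called either way were 26.0% of members with apigenin and 23.4% with chrysin, against 46.2% and 53.0% of all genes. The 77 cytosolic ribosomal protein genes, which build the other ribosome of the cell, had smaller differences still. Of these 7 rose and 2 fell with apigenin and 4 rose and 4 fell with chrysin, with median absolute differences of 0.09 and 0.12. Among 75 nuclear genes for subunits of oxidative phosphorylation, 4 rose and 18 fell with apigenin and 1 rose and 20 fell with chrysin. The shares that fell, 24.0% and 26.7%, were close to the 23.2% and 26.7% of all genes tested. The shares that rose, 5.33% and 1.33%, were below the 23.0% and 26.3% of all genes. The signed median differences of these 75 genes were -0.10 and -0.14, and their median absolute differences 0.20 and 0.17. Whether these lists differ from the mitochondrial ribosomal proteins beyond chance was not tested.

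**Figure D5:**
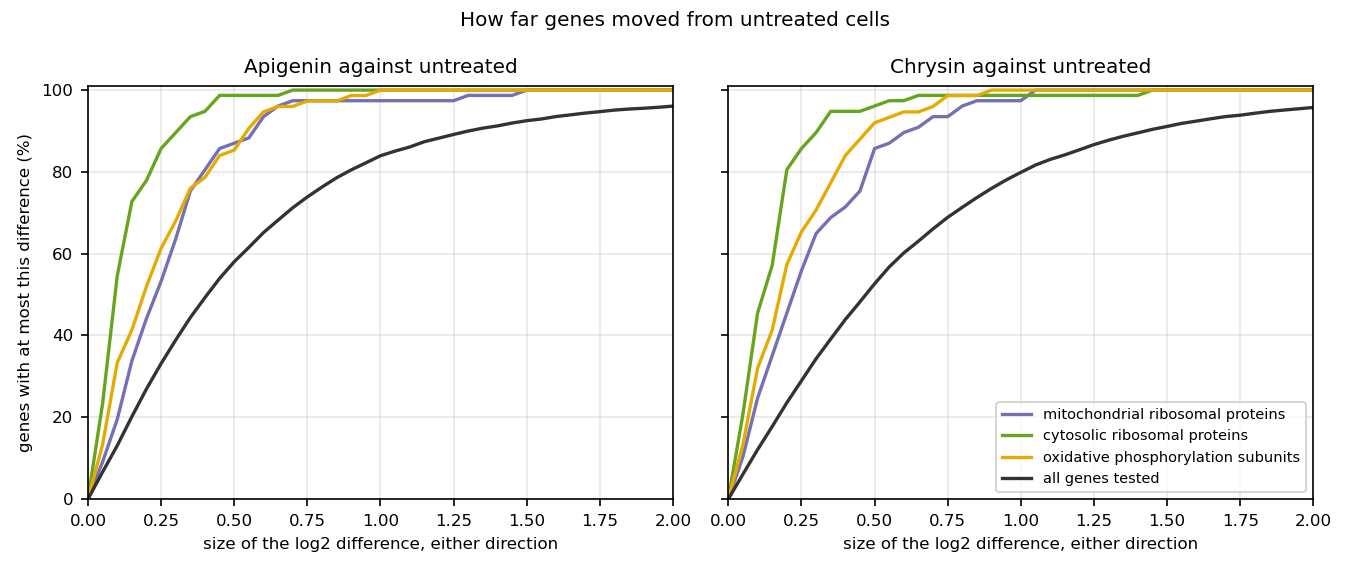
Share of genes (%) whose log2 difference from untreated is at most the size on the horizontal axis, for apigenin (left) and chrysin (right). The curve of the 77 mitochondrial ribosomal protein genes (purple) lies above that of all 12198 genes tested (dark grey) up to a size of 2, and that of the 77 cytosolic ribosomal protein genes (green) is highest at small sizes.

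Members with and without a bacterial counterpart were counted apart. In the large subunit, 6 of 30 genes with a counterpart rose and 2 fell with apigenin, as did 3 and 3 of 18 mitochondria-specific genes. With chrysin, 2 rose and 5 fell among the 30, and 1 rose and 4 fell among the 18. In the small subunit, 2 of 16 genes with a counterpart rose and 3 fell with apigenin, and of 13 mitochondria-specific genes none rose and 1 fell. That gene was Mrps18b, which was counted as mitochondria-specific here although it is a relative of bacterial S18. With chrysin, 1 of the 16 fell and none rose, while 3 of the 13 rose and 2 fell. Of all genes tested, 23.0% rose and 23.2% fell with apigenin, and 26.3% rose and 26.7% fell with chrysin. At an unadjusted p under 0.05, limma found 5 of the 16 and 1 of the 13 with apigenin, against 53.4% of all genes tested, and 2 of the 16 and 5 of the 13 with chrysin, against 58.4% of all genes tested.

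Level per kilobase of exon, which allows genes to be set side by side, ran over a wide range. Mrpl42, a mitochondria-specific protein, was highest in the large subunit, at 636 normalized counts per kilobase with apigenin, 649 with chrysin and 559 untreated. Mrpl48, also mitochondria-specific, was lowest there, at 16.6, 15.0 and 25.6. In the small subunit Mrps15, with a bacterial counterpart, was highest at 280, 381 and 361, and Mrps10 lowest at 12.5, 17.4 and 17.7, in the same order of groups. Both lowest genes have long annotated exons in GENCODE vM1 (6139 and 8079 bases), so the part of unused exons in their low level was not tested.

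The genes around the ribosome were followed as lists. Of 6 mitochondrial ribosomal proteins with other names, none rose and 2 fell with each flavone (3 with apigenin and 2 with chrysin at an unadjusted p under 0.05 by limma, against 53.4% and 58.4% of all genes tested). Gadd45gip1, a large subunit protein that also binds GADD45 proteins, differed by -0.61 ± 0.18 with apigenin and -1.05 ± 0.18 with chrysin. Ict1, a codon-independent peptide release factor built into the large subunit, differed by -0.65 ± 0.22 and -0.66 ± 0.22. The list's medians were -0.14 and -0.12.

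Of 12 mitochondrial translation factors, 1 rose and none fell with apigenin, and 2 rose and 1 fell with chrysin, with medians of 0.05 and 0.14. Gfm2, which takes part in ribosome recycling, rose with both (0.76 ± 0.12 and 0.63 ± 0.12). With chrysin the elongation factor gene Gfm1 rose by 0.39 ± 0.12, and Pdf, which removes the formyl group from new peptides, fell (-0.71 ± 0.19). At an unadjusted p under 0.05, 1 of the 12 was found by limma with apigenin and 3 with chrysin, against 53.4% and 58.4% of all genes tested.

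Of 23 genes for ribosome assembly and ribosomal RNA modification, 4 rose and 2 fell with apigenin, and 5 rose and 6 fell with chrysin, with medians of 0.06 and -0.22. Called either way were 26.1% with apigenin and 47.8% with chrysin, against 46.2% and 53.0% of all genes tested. Mtg2, a GTPase of large subunit assembly, rose with both (1.58 ± 0.37 and 0.94 ± 0.37). Mpv17l2, an inner membrane protein tied to assembly, fell with both (-0.51 ± 0.11 and -0.33 ± 0.11). With chrysin Mterf3, a regulator of mitochondrial transcription and assembly, rose (0.65 ± 0.14), and the pseudouridine synthase gene Trub2 and the RNA methyltransferase gene Nsun4 fell (-0.72 ± 0.15 and -1.33 ± 0.30). Of 20 mitochondrial aminoacyl-tRNA synthetase and amidotransferase genes, none rose and 2 fell with apigenin, and 1 rose and 4 fell with chrysin, with medians of -0.01 and -0.20 (5 genes each at an unadjusted p under 0.05 by limma, against 53.4% and 58.4% of all genes tested). Wars2, for tryptophan, fell with both (-0.98 ± 0.29 and -1.02 ± 0.29), and Vars2 and Aars2, for valine and alanine, fell with chrysin (-0.74 ± 0.21 and -1.24 ± 0.36).

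Of 9 genes for transcription and replication of mitochondrial DNA, 1 rose and none fell with apigenin, and 3 rose and 1 fell with chrysin, with medians of 0.17 and 0.26 (2 and 4 genes at an unadjusted p under 0.05 by limma, against 53.4% and 58.4% of all genes tested). Peo1, the replicative helicase, rose with both (0.51 ± 0.15 and 1.18 ± 0.15), while Polrmt, the mitochondrial RNA polymerase, fell with chrysin (-0.85 ± 0.20) and Tfb2m, its partner factor, rose (0.61 ± 0.13). Mitochondrially encoded transcripts were not analysed here.

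Of 10 nuclear regulators of mitochondrial genes, 9 were tested. With apigenin 1 rose and 3 fell, and with chrysin 4 rose and 1 fell, with medians of -0.11 and 0.25. Called either way were 44.4% with apigenin and 55.6% with chrysin, against 46.2% and 53.0% of all genes tested. Gabpb1, the partner subunit of the ETS factor GABP, had a mean level of 7.68 with apigenin, 9.80 with chrysin and 8.47 untreated. It fell with apigenin (-0.80 ± 0.16) and rose with chrysin (1.33 ± 0.16), and the flavones differed by -2.13 ± 0.16 (limma's adjusted p = 3.05e-08, n = 4 per group). Pprc1, a coactivator of NRF1, averaged 8.44 with apigenin, 9.40 with chrysin and 9.41 untreated (-0.97 ± 0.12 with apigenin). Esrra, an orphan nuclear receptor, rose with both (0.91 ± 0.21 and 0.78 ± 0.21), and Myc fell with both (-0.36 ± 0.14 and -1.37 ± 0.14). Yy1 rose with chrysin (0.51 ± 0.09). Any link of these regulators to the members was not tested.

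Promoters were searched in the RefSeq table of assembly GRCm38.p6 for 68 of the 77 members, over the 250 bases before each gene's start on both strands, for each of 4 motifs. Not matched were Mrps28, Mrpl4, Mrpl15, Mrpl13, Mrpl19, Mrpl38, Mrps35, Mrpl54 and Mrps34. The NRF1 motif, searched with any base allowed at the fifth letter, was present in 14.7% of these members (21.4% of 42 in the large and 3.85% of 26 in the small subunit), against 9.61% of 9751 genes tested with a promoter in the table. With that letter fixed as A, it was present in 4.41% of members (7.14% of the 42 and none of the 26) and 1.90% of genes tested. The ETS motif CCGGAAG was present in 25% of members and 16.0% of genes tested, the YY1 motif AAGATGGC in 5.88% and 2.41%, and the E-box CACGTG, which MYC can bind, in 7.35% and 10.1%. Of the 10 members with the NRF1 motif, 3 rose and 1 fell with apigenin and 3 rose and none fell with chrysin, against 7 and 6, and 3 and 9, of the 58 without it. Of the 17 with the ETS motif, 1 rose and 2 fell with apigenin and none rose and 3 fell with chrysin, against 9 and 5, and 6 and 6, of the 51 without it. Over all genes tested 23.0% rose and 23.2% fell with apigenin, and 26.3% rose and 26.7% fell with chrysin. A match is a description of the letters, not a site, and the counts by motif were not tested.

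The 150 bases before the start are printed for 5 members that the comparisons turned on, on the gene's own strand in GRCm38.p6, with motif letters in capitals. They show a member that rose with chrysin, 1 that rose with apigenin, 1 that fell with chrysin, 1 that fell with both flavones and the member that differed most between the flavones.
Mrpl9 (chr3:94443186-94443335, + strand): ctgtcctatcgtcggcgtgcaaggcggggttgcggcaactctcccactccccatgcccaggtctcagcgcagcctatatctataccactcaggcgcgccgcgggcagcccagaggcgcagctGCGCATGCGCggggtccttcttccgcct
Mrpl34 (chr8:71464776-71464925, + strand): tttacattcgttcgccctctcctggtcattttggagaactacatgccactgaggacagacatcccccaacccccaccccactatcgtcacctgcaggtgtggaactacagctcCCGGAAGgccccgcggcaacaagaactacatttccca
Mrpl36 (chr13:73330859-73331008, + strand): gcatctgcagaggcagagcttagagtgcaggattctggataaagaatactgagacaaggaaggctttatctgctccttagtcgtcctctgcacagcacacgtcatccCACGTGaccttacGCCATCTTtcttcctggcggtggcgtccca
Mrpl23 (chr7:142532882-142533031, + strand): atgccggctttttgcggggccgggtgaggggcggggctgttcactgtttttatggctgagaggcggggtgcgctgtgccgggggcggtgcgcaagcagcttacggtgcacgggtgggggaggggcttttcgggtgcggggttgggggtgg
Mrps12 (chr7:28741822-28741971, - strand): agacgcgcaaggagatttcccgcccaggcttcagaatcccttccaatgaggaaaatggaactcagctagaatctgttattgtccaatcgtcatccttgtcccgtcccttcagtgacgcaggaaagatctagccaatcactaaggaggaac
The Mrpl9 window holds the NRF1 motif from 28 to 19 bases before the start, in the form with A at the fifth letter, which reads as itself on the other strand. The Mrpl34 window holds the ETS motif from 37 to 31 bases before the start. The Mrpl36 window holds the E-box from 43 to 38 and the YY1 motif, on the other strand, from 30 to 23 bases before the start. None of the 4 motifs was in the printed Mrpl23 and Mrps12 windows, but the longer Mrps12 promoter that was searched holds the YY1 motif, on the other strand, beyond the printed bases.

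Many members start close to another gene. In the mm9 annotation 32 of 77 had a partner on the other strand whose start lay within 1000 bases, and 23 of these had a tested partner outside the family. Member and partner were both called in 3 of the 23 pairs with apigenin against untreated (2 in the same direction), in 3 with chrysin against untreated (1 in the same direction) and in 5 between the flavones (4 in the same direction). Of the 23 pairs, 5 members and 9 partners were called with apigenin, 8 and 9 with chrysin, and 9 and 11 between the flavones. Over all genes tested 46.2%, 53.0% and 50.7% were called, in that order. Whether neighbours were called together beyond chance was not tested. The pairs named next were chosen after their values were seen. Mrps12 starts 171 bases from Sars2, the mitochondrial seryl-tRNA synthetase, which was not called between the flavones (-0.40 ± 0.46) where Mrps12 differed by 1.13. Mrpl50, a mitochondria-specific protein, starts 83 bases from the zinc finger gene Zfp189. With apigenin Mrpl50 differed by -0.56 and Zfp189 by 0.61, and with chrysin they differed by -0.70 and 0.93, in opposite directions each time. Mrps34 and the endonuclease subunit gene Eme2, 29 bases apart, were both higher with apigenin than with chrysin, by 0.70 and 1.01. Mrpl41 and the lipase gene Pnpla7, 935 bases apart, were also both higher with apigenin than with chrysin, by 0.51 and 0.99. In all, 5 members overlap a tested gene on their own strand and 16 on the other strand, and since the strand setting of the counting is not given, their values are uncertain. Those on their own strand are Mrps24, Mrpl33, Mrpl53, Mrps34 and Mrps6.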

How the data were processed

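A stranded mRNA library kit was used, per the labels' protocols. The submitters' processing notes name STAR, HTSeq, DESeq2, cutadapt and FastQC with build mm9, and their versions and settings are not given. The authors deposited log2 values, which the numbers show to be the log2 of a normalized count plus 1. Reads were recovered from the steps of these values (99.966% to 100.0% of low values per library within 0.05 reads of a whole number) and fix the depth given. Sample titles gave the groups. Genes whose normalized count averaged 10 or more were fitted with limma 3.58.1 (R 4.3.3; trend, robust; 1 mean per group over 12 libraries), two-sided, with Benjamini-Hochberg adjustment over 12198 genes; 12260 were left out. Changes of genes with few reads are understated on this scale. The fit was also run on simulated counts with a fixed spread and few changed genes. That does not check calls at the spread of these libraries. Replicate numbers did not pair libraries (correlations of deviations -0.096 to 0.102). Lengths, overlaps and distances came from GENCODE vM1 on mm9, promoters from RefSeq (GRCm38.p6).

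Members, lists, roles and tests were chosen with earlier results of these data known. Named were the 3 largest rises and falls per subunit and comparison among called members without overlap, fixed names, extremes per kilobase and up to 3 genes per list with the smallest p; others are counted, or named in passing. Alternatives were quantile normalization, median centring, other filters, pseudocounts (0.25 and 4), variance models, array weights, 8 libraries alone, a replicate block, a threshold of 0.01, subunit assignment, pairs of apigenin libraries and leaving out each library; limma-voom on recovered reads and scaling to the library total were chosen after seeing the data.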

Additional observations from a re-analysis of the deposited data

Results flagged for a closer look

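In 8 of 96 groups of 4 libraries that were checked, 1 library's gap to its nearest neighbour exceeded Dixon's critical share of the group's range (95% level), and chance gives about 1 in 20. With apigenin these were Mrpl40 in replicate 1 (7.45, the others 7.99 to 8.08) and Mrps36 in replicate 3 (6.96, the others 6.39 to 6.43). With chrysin they were Mrpl41 in replicate 2 (8.10, the others 7.32 to 7.42) and Mrps30 in replicate 1 (7.82, the others 8.41 to 8.51). In untreated replicate 1 the high values were Mrpl23 (7.18, the others 7.02 to 7.03), Mrps36 (7.43, the others 6.76 to 6.85), Mrpl42 (8.74, the others 8.45 to 8.49) and the mean level of the large subunit (7.80, the others 7.62 to 7.65).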

How the results depend on the processing

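Counts are given here as risen or fallen members (higher or lower between the flavones) by subunit. Leaving out 1 library at a time, apigenin against untreated gave 5 to 10 risen and 2 to 6 fallen in the large and 0 to 2 and 2 to 4 in the small subunit, with medians of 0.08 to 0.16 and -0.040 to 0.11. Chrysin against untreated gave 2 to 7 and 7 to 10, and 1 to 4 and 1 to 3, with medians of -0.10 to -0.00 and -0.07 to 0.02. Apigenin against chrysin gave 7 to 12 and 1 to 2, and 1 to 4 and 3 to 7, with medians of 0.07 to 0.13 and -0.062 to 0.13. The lowest counts came without untreated replicates 1 to 4, apigenin replicates 2 to 4 or chrysin replicates 2 to 4, and the 7 large subunit rises with chrysin came without chrysin replicate 1.

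At an adjusted p under 0.01, apigenin against untreated gave 3 and 1 in the large and 0 and 2 in the small subunit, chrysin against untreated gave 5 large subunit falls and 1 and 1 in the small subunit, and apigenin against chrysin gave 4 and 1, and 1 and 2. Without a filter on low counts the large subunit falls with apigenin were 2 and the small subunit rises 1, the small subunit counts with chrysin were 1 and 1, and between the flavones 1 large subunit member was lower and 2 and 3 small subunit members higher and lower. Array weights gave 8 large subunit falls and 5 small subunit rises with apigenin, and 9 large subunit rises with chrysin. Median centring gave 1 small subunit rise with apigenin and 2 small subunit members higher between the flavones. Quantile normalization gave 7 large and 2 small subunit members higher between the flavones, a small subunit median of -0.13 there and 1 small subunit fall with chrysin. Limma-voom on recovered reads and the 8 libraries alone each gave 2 small subunit members higher between the flavones.

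With apigenin replicates 1 and 3 only, apigenin against untreated gave 4 and 1, and 1 and 2, chrysin against untreated 5 large subunit rises, and apigenin against chrysin 3 small subunit members higher with a small subunit median of -0.047. With replicates 2 and 4 only, the large subunit had 5 rises with chrysin, and 6 higher, 1 lower and a median of 0.038 between the flavones. Scaling to the library total gave 14 and 2, and 5 and 2, with medians of 0.25 and 0.20 for apigenin against untreated, medians of -0.11 and -0.10 for chrysin against untreated, and 20 and 1, and 9 and 1, with medians of 0.33 and 0.24 between the flavones. Over all 12198 genes tested, library-total scaling gave 3843 and 2194, 2773 and 3716, and 4443 and 2101 in these comparisons. For apigenin against untreated, all genes tested gave 2024 and 2302 with apigenin replicates 1 and 3 only. With replicates 2 and 4 only they gave 3330 and 3370.

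The replicate numbers share only a number. The replicate block left 1 small subunit rise with apigenin and 3 small subunit members higher between the flavones, and the other block counts were within 1.5 times of the values without it. No result reversed a called direction. The cause of these shifts was not tested. Members had 23 or more reads per library, and depth limits those with the fewest. Mrpl23 and Mrpl36 had standard errors of 0.24 and 0.25, against a median of 0.16 over the members.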
